A study of Homo sapiens with 6 samples.

Results

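The Kruppel-like factors examined here were KLF2, KLF4, KLF5, KLF6, KLF7, KLF9, KLF10, KLF11 and KLF13, 9 genes chosen by name. Every probe set annotated to 1 of these symbols alone was taken, which gave 28 of the 54675 probe sets on the array. The rule is by name, but the genes were listed with earlier results of these data known, so the counts of signs and calls below describe a list that was not chosen blind. All 28 probe sets entered the tests, with no filter on dim signals. They were measured in NCI-H226, an established human mesothelioma cell line labelled as such in every sample. The spheroid group held 3 biological replicates, grown for 24 hours in wells coated with poly-HEMA, a polymer that keeps cells from attaching, with 10000 cells centrifuged together in each well. The monolayer group held 3 biological replicates grown attached in RPMI 1640 medium with fetal bovine serum. The labels name no altered gene and no drug in either group. Coating, centrifugation and 3-dimensional growth differed together between the groups and cannot be told apart, and a single line cannot stand for other mesotheliomas. Spheroids were seeded from cells dissociated with Accutase, and the methods give no time since seeding for the monolayers of the arrays. Time since dissociation and cell density may thus have differed between the groups as well. Total RNA of each culture was read on 1 Affymetrix Human Genome U133 Plus 2.0 array. The p-values below rest on the spread between these 3 arrays per group. In limma the spread of each probe set is also drawn toward a trend of variance on signal over all probe sets.

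Kruppel-like factors are transcription factors with zinc fingers of the C2H2 type at the carboxyl end, which bind GC-rich and CACCC elements in promoters and enhancers, and they share this DNA-binding domain with the SP family. They differ mainly in the amino-terminal part. KLF2, KLF4, KLF5, KLF6 and KLF7 are known mostly as activators that recruit acetyltransferases, although KLF4 can also repress. KLF9, KLF10, KLF11 and KLF13 carry a motif that binds the corepressor SIN3A and through it histone deacetylases. Several members are early response genes, induced by flow, growth factors, hormones or wounding, and several control the choice between proliferation and differentiation in epithelia.

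Promoter sequence from RefSeq (GRCh38.p14), covering 250 bases before to 50 bases after a gene's start, was matched by symbol for 8 of the 9 members, with 13 promoters in all. A GC box (GGGCGG or CCGCCC, both strands searched) was found in 8 of these 13 promoters and in 45.0% of 35116 human promoters. A CACCC element (CACCC or GGGTG) was found in 7 of 13 and in 59.9% of all. These letters are shown because both are elements that the proteins of the family bind. The windows below belong to KLF9, which had the largest called rise in spheroids, and to KLF5, the 1 member with a called fall, at the more GC-rich of its windows. Capitals mark GC boxes and CACCC elements.
KLF9, chr9:70414608-70414907, minus strand: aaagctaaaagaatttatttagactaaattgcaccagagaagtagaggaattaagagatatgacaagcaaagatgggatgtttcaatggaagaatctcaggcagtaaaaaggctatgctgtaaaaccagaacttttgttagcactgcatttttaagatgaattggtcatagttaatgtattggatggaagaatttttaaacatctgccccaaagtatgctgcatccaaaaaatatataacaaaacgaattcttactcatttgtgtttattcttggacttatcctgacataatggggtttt
KLF5, chr13:73058755-73059054, plus strand: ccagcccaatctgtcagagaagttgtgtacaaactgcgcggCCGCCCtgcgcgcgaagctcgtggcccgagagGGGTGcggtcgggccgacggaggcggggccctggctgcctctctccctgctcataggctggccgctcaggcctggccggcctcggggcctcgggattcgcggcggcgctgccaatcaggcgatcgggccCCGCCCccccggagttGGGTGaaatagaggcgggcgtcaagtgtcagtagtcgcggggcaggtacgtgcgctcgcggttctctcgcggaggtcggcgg
The KLF9 window had a GC content of 32.7%, against a median of 58.7% over all promoters, and held neither element. The KLF5 window had a GC content of 71.3%, with 2 GC boxes and 2 CACCC elements. KLF2 is induced in endothelium through the kinase ERK5 and the factor MEF2. A match to the MEF2 consensus, found in 0.572% of all promoters, stood in the KLF2 promoter (chr19:16324576-16324875, plus strand) at bases -120 to -111 from the start, and in none of the other 12 promoters of the family searched. It is shown in capitals in its surroundings.
KLF2, MEF2 match: tataccgcggCTAAATTTAGgctgcgcccg
A match is a description of these letters, and no binding was measured.

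Of the 28 KLF probe sets, limma called 4 higher and 1 lower in spheroids at a Benjamini-Hochberg adjusted p under 0.05, taken over 54613 probe sets. Over all probe sets tested, 9.43% were called, 2.78% higher and 6.65% lower, against 17.9% of the KLF probe sets called and 14.3% called higher. Calls were more frequent at bright probe sets, and 22 of the 28 lay above the median level. Among all probe sets above it, 17.6% were called, 4.94% higher and 12.7% lower, against 22.7% of these 22 called and 18.2% called higher. The 4 higher probe sets belonged to 2 genes, 3 to KLF9 and 1 to KLF7, and the lower one belonged to KLF5. The other 6 genes had no called probe set. The signs of the differences, called or not, were mostly positive. The log2 fold change, spheroids minus monolayers, was above 0 for 24 of 28 KLF probe sets (85.7%), against 45.3% of all probe sets, and its median was 0.47, against -0.075 over all. The 28 probe sets read 9 genes, so they are not 28 separate observations, and in bulk RNA a change in the share of some cells cannot be told apart from a change in RNA per cell. Without the KLF9 probe sets, the median of the remaining 23 was 0.42, with 1 called higher. The spheroid and monolayer values did not overlap, spheroids higher, at 13 of the 28 (46.4%), a separation found at 10.2% of all probe sets. Monolayer 1 stood apart from the other monolayers at several genes below, and without it limma called the same 5 KLF probe sets.

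The choice of scaling bears on these counts. The median log2 signal of the arrays was higher by 0.15 in spheroids (median signals 15.6, 18.0 and 15.2, against 14.6 to 14.7 in monolayers). Spheroid 2 lay furthest above the monolayers, and spheroids 1 and 3 lay closer to them. The values below are relative to each array's median. Without this centring 9 KLF probe sets were called higher and 0 lower by limma, with 15 under an unadjusted p of 0.05. With limma lacking the trend of variance on signal, 0 were called in either direction, with 9 under an unadjusted p of 0.05. The methods' t-test on the same values, after Benjamini-Hochberg adjustment, called 1. The share of all probe sets under an unadjusted p of 0.05 was not counted. Counts under an unadjusted p, here and below, therefore have no background to be read against.

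**Figure D1:**
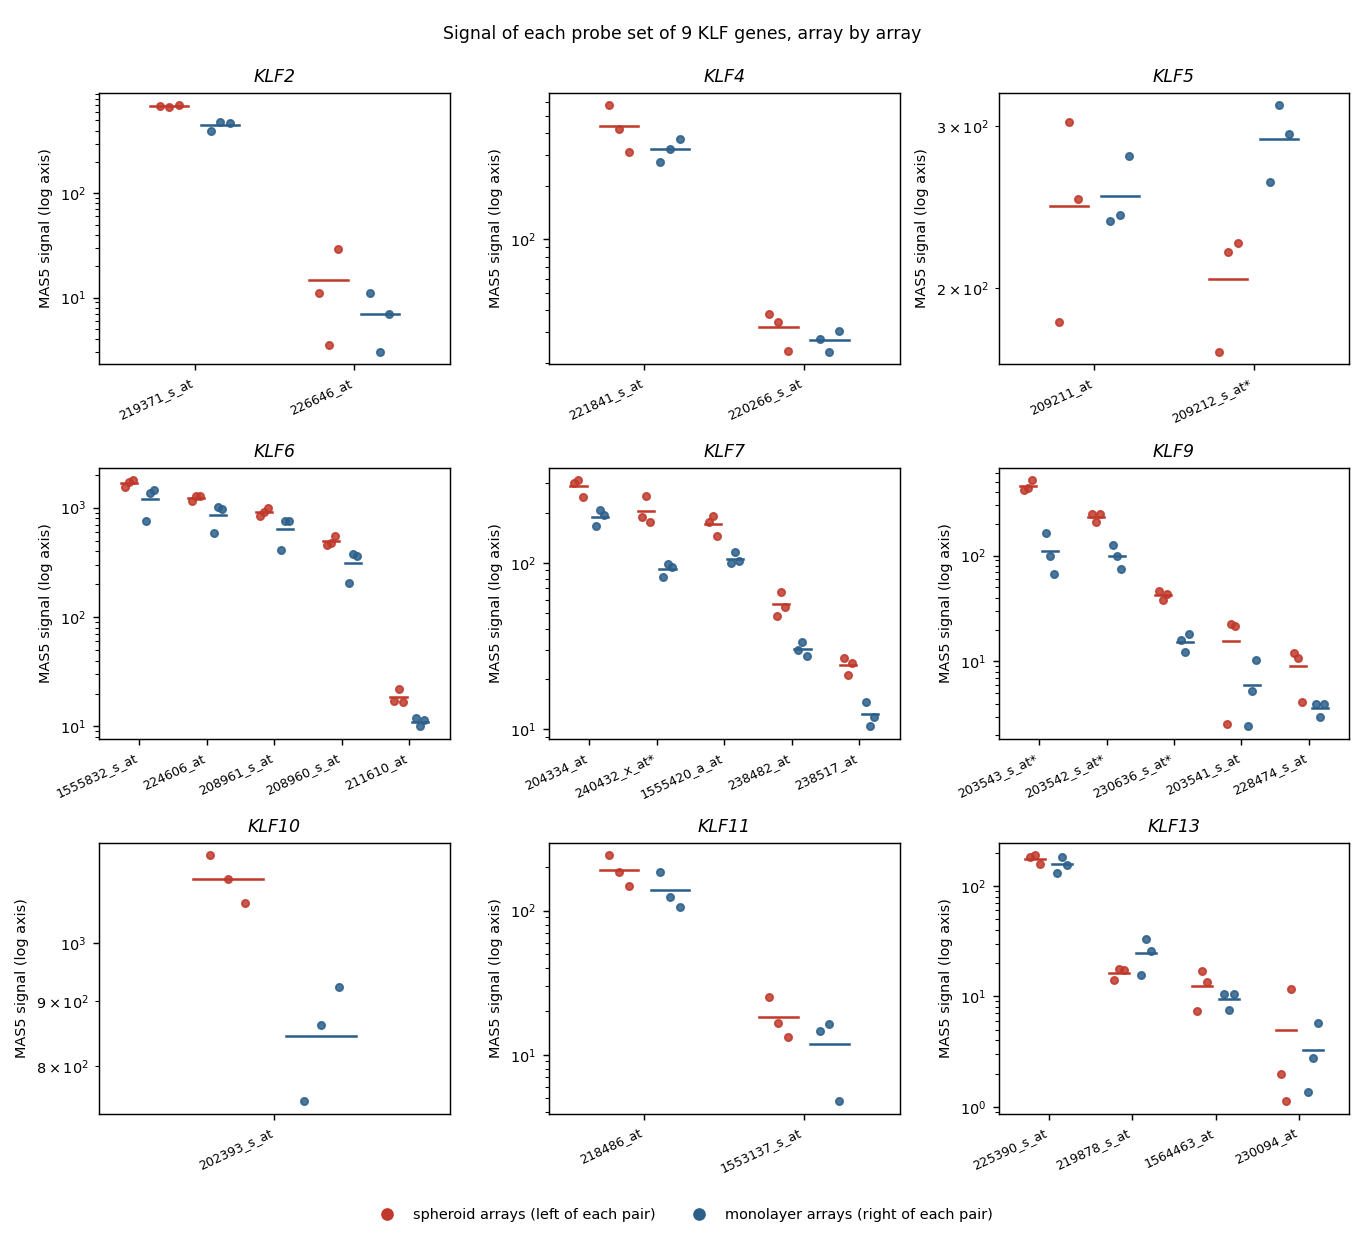
MAS5 signal (log axis, range set for each panel) of every probe set of the 9 KLF genes on each array, spheroid arrays in red to the left of monolayer arrays in blue, with bars at the group means (n = 3 each) and asterisks at called probe sets. The 3 called KLF9 probe sets and all 5 KLF7 probe sets have every spheroid array above every monolayer array.

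KLF9, which glucocorticoids and thyroid hormone induce in many tissues, had the largest change of the family. Its probe set 203543_s_at had signals of 418, 430.4 and 515 in the spheroids, against 162, 98.0 and 67.5 in the monolayers. Every spheroid array stood well above every monolayer array, and the monolayer arrays were the more spread of the 2 groups on the log scale. The centred difference was 2.0 ± 0.29 on the log2 scale (SE), a 3.99-fold higher level (limma, adjusted p = 0.00384). The call was kept with each of the 6 arrays left out in turn, at differences of 1.69 to 2.33, and was lost in limma without the trend (adjusted p = 0.0694) and in the methods' t-test (adjusted p = 0.101).

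The other KLF9 probe sets pointed the same way with less certainty. At 203542_s_at the signals were 245, 206 and 249 in spheroids, against 125, 99.8 and 73.9 in monolayers, a 2.16-fold higher level (log2 difference 1.11 ± 0.23 SE, limma, adjusted p = 0.0168). At 230636_s_at they were 46.2, 37.8 and 43.1 in spheroids, against 15.9, 12.3 and 18.1 in monolayers, 2.51-fold higher (1.33 ± 0.29 SE, limma, adjusted p = 0.0237). The groups did not overlap at either probe set. The first call was lost when spheroid 1, spheroid 3, monolayer 2 or monolayer 3 was left out, with differences of 0.91 to 1.13, and the second when spheroid 1, spheroid 3 or monolayer 2 was left out, with 1.17 to 1.27. Both dim probe sets missed the threshold. At 228474_s_at the difference was 1.03 (limma, adjusted p = 0.346) with groups apart, and at 203541_s_at it was 0.95 (adjusted p = 0.614), with spheroid 1, at 2.55, among the monolayer values of 2.43 to 10.3. All 5 KLF9 differences were thus above 0, from 0.95 to 2.0.

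KLF7, first known for its part in the growth of neuronal processes and now known to be widely expressed, had spheroid arrays above monolayer arrays at each of its 5 probe sets. At 240432_x_at the signals were 188, 250.1 and 176 in spheroids, against 81.6, 98.1 and 94.8 in monolayers. The difference was 1.0 ± 0.16 on the log2 scale, or 2.0-fold (limma, adjusted p = 0.00505). This probe set passed with each array left out and was the 1 KLF probe set called by the methods' t-test (adjusted p = 0.0463), although limma without the trend gave an adjusted p of 0.0721. The suffix x_at marks a probe set whose probes can also match other transcripts. The remaining 4 did not pass. At 204334_at the signals were 299.9, 313 and 248 in spheroids, against 165, 208 and 194 in monolayers, a difference of 0.45 (limma, adjusted p = 0.0946). The differences at 1555420_a_at, 238482_at and 238517_at were 0.54, 0.74 and 0.85 (limma, adjusted p = 0.0611, 0.0684 and 0.176). On the deposited scale, with the 75th percentile or with quantile normalization, 1555420_a_at, 204334_at and 238482_at passed as well.

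KLF5, a factor that promotes proliferation in the basal cells of epithelia, was the 1 member with a lower probe set. At 209212_s_at the signals were 171, 219 and 224 in spheroids, against 261, 316 and 294 in monolayers, with no overlap. The log2 difference was -0.66 ± 0.16 (SE), a 1.58-fold lower level (limma, adjusted p = 0.0323). The second KLF5 probe set did not show this separation. At 209211_at the signals were 184, 303 and 250.2 in spheroids, against 237, 240.1 and 278 in monolayers, with the highest and the lowest value both among the spheroids and a difference of -0.21 (95% interval -0.59 to 0.18, limma, adjusted p = 0.55). The call at 209212_s_at rested on the scaling: without centring the difference was -0.51 (adjusted p = 0.0669), and with the 75th percentile and quantile normalization it was -0.52 and -0.48 (adjusted p = 0.0804 and 0.0941). It was also lost when spheroid 1, spheroid 2, monolayer 2 or monolayer 3 was left out, with differences of -0.65 to -0.56.

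KLF2, which keeps endothelium and T lymphocytes in a quiescent state, fell short of the threshold while its groups stood apart. At 219371_s_at the signals were 695, 681 and 698 in spheroids, against 399.7, 483 and 470.2 in monolayers. The spheroid arrays lay within a narrow band above all monolayer arrays, and the difference was 0.48 (95% interval 0.16 to 0.79, limma, adjusted p = 0.0683). It passed without centring (0.62, adjusted p = 0.0087), with the 75th percentile (0.61, adjusted p = 0.0127), with quantile normalization (0.66, adjusted p = 0.0065) and when the brighter probe sets were tested alone (0.48, adjusted p = 0.0459). The second KLF2 probe set, 226646_at, was dim and scattered, with 11.2, 3.50 and 29.2 in spheroids and 11.1, 3.03 and 6.88 in monolayers (difference 0.62 ± 0.85 SE, limma, adjusted p = 0.743).

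KLF4, a factor of terminal epithelial differentiation and of reprogramming to pluripotency, overlapped between the groups. At 221841_s_at the signals were 571, 419.7 and 312 in spheroids, against 273, 326 and 371 in monolayers. Spheroid 3 lay below monolayer 2 and monolayer 3, and the difference was 0.25 (95% interval -0.25 to 0.75, limma, adjusted p = 0.589). At 220266_s_at it was 0.070 (-0.56 to 0.70, adjusted p = 0.924). Both intervals include a change in either direction.

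KLF6, an early response factor of tissue injury, had positive differences at all 5 probe sets, and none passed. The deposited signals did not overlap at any of the 5, and after centring they did at 1555832_s_at and 208961_s_at. At 208960_s_at the signals were 452, 476 and 554 in spheroids, against 203, 378 and 365 in monolayers, a difference of 0.55 (95% interval 0.00097 to 1.10, limma, adjusted p = 0.221). Monolayer 1 was the lowest array here and at the 3 probe sets of higher mean signal, by a wide margin. At 224606_at, for example, the signals were 1146, 1269 and 1287 in spheroids, against 592, 1007 and 979 in monolayers. Without monolayer 1 the differences at 1555832_s_at, 224606_at, 208961_s_at and 208960_s_at were 0.11, 0.17, 0.13 and 0.26, against 0.40, 0.42, 0.42 and 0.55 with all arrays. The dim probe set 211610_at gave 0.60 with all arrays and 0.65 without monolayer 1.

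**Figure D2:**
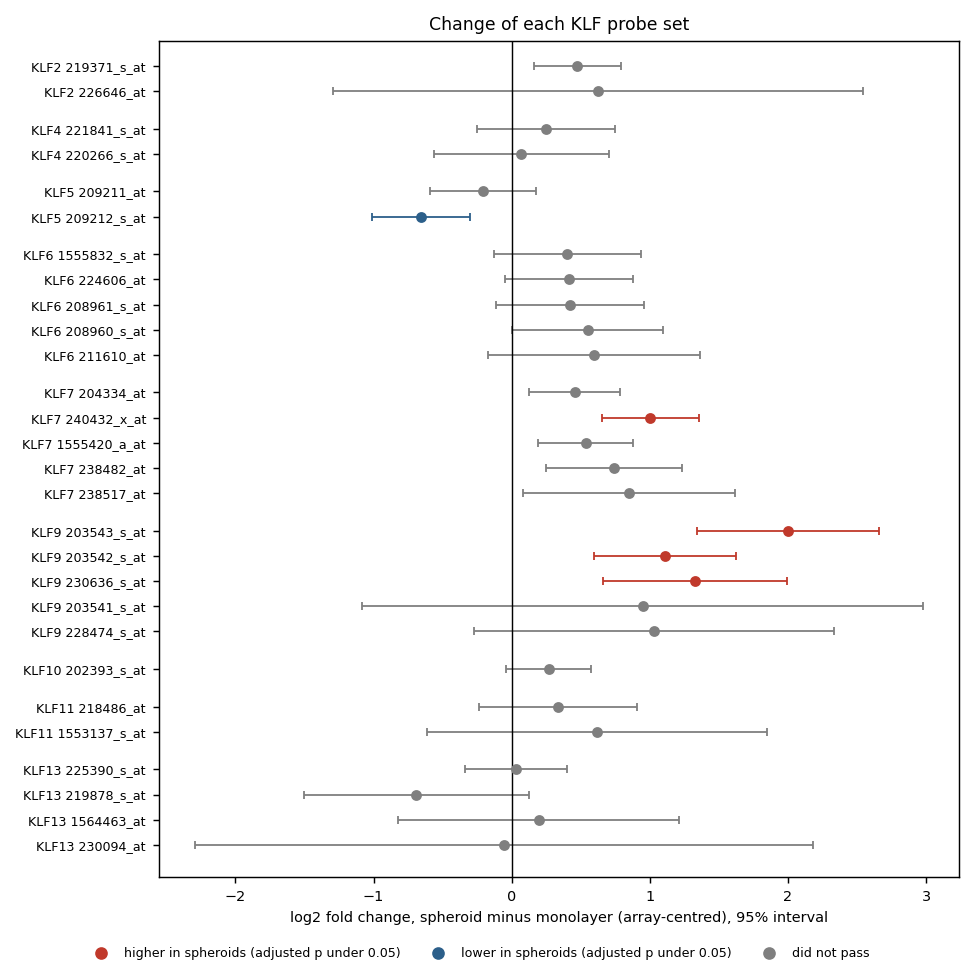
Log2 fold change (spheroids minus monolayers, centred on each array's median) of each of the 28 KLF probe sets, with 95% intervals from limma, red where called higher, blue where called lower and grey where not called. KLF9 203543_s_at stands at 2.0, KLF5 209212_s_at is the 1 blue point at -0.66, and the intervals of the dimmest probe sets are the widest.

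KLF10 and KLF11 are known as TGF-beta-inducible early genes and act as repressors of growth genes. KLF10 has 1 probe set, 202393_s_at, with signals of 1172, 1122 and 1074 in spheroids, against 751, 861 and 923 in monolayers. The deposited signals did not overlap, and after centring they did, with a difference of 0.27 (95% interval -0.039 to 0.58, limma, adjusted p = 0.293). It was called without centring, at 0.41, and with quantile normalization, at 0.43. KLF11 overlapped at both probe sets. Its signals at 218486_at were 244, 184 and 148 in spheroids, against 186, 124 and 106 in monolayers (difference 0.34, limma, adjusted p = 0.504), and the difference at 1553137_s_at was 0.62 (adjusted p = 0.579).

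KLF13, known for activating the chemokine gene CCL5 in T lymphocytes, showed no common direction. At 225390_s_at the signals were 181, 190.5 and 157 in spheroids, against 131, 183 and 156 in monolayers, with both groups over much the same range. The difference was 0.031 (95% interval -0.34 to 0.40, limma, adjusted p = 0.945), which spans levels of 0.79-fold to 1.32-fold. The differences at 219878_s_at, 1564463_at and 230094_at were -0.69, 0.19 and -0.057 (limma, adjusted p = 0.307, 0.859 and 0.984). At 230094_at 4 of 6 arrays lay under a signal of 3.11, the 20th percentile of all signals.

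Grouped by type, the 16 probe sets of the 5 activators (KLF2, KLF4, KLF5, KLF6, KLF7) had a median difference of 0.47, with 1 called higher and 1 lower. The 12 probe sets of the 4 SIN3A-binding members (KLF9, KLF10, KLF11, KLF13) had a median of 0.48, with 3 called higher, all of KLF9, and 0 lower. When each gene was read at its brightest probe set, 1 of the 9 genes was called higher (KLF9) and 0 lower. Read so, 3.88% of 19775 genes were called higher and 9.22% lower, and the median was 0.34 for the KLF genes and -0.062 for all genes.

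**Figure D3:**
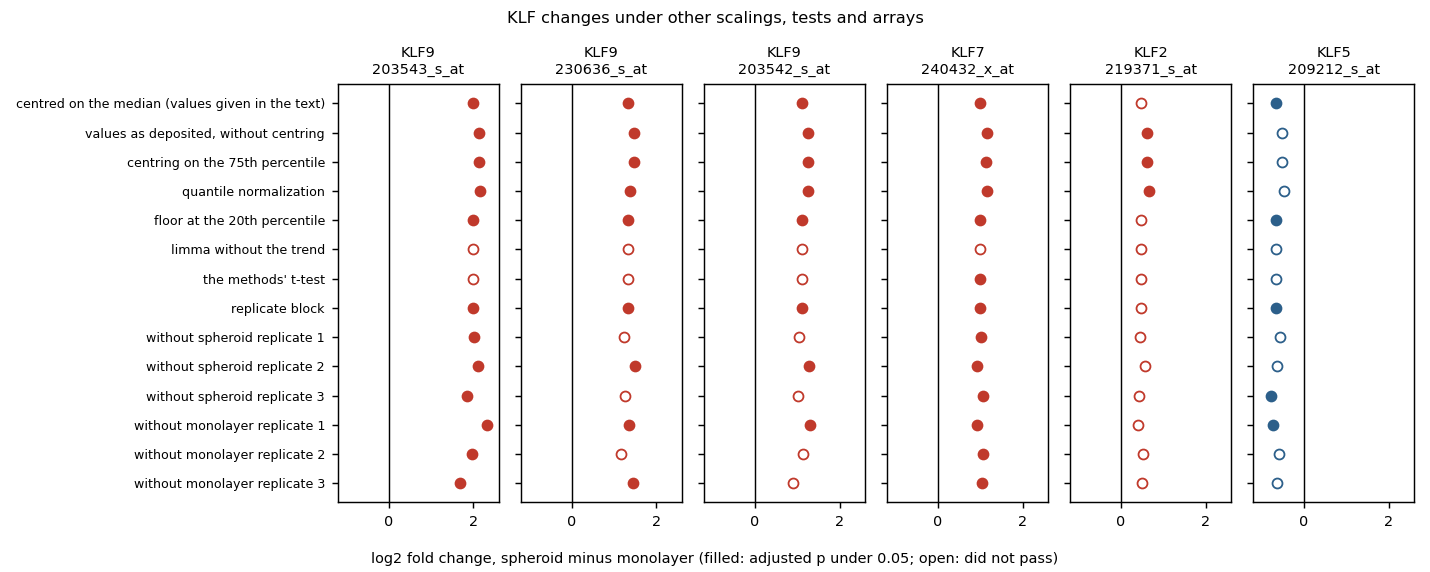
Log2 fold change (spheroids minus monolayers) of the called KLF probe sets and of KLF2 219371_s_at under each scaling, test and left-out array, with filled points where the adjusted p is under 0.05. KLF9 203543_s_at and KLF7 240432_x_at stay filled with every array left out, and KLF5 209212_s_at is open under the 3 other scalings.

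The rest of the KLF and SP families was read as a background for these genes. Of 18 other members, 16 had a probe set with their symbol alone, and 1 was called higher and 0 lower, with a median difference of -0.14. The signal levels were unlike. KLF1, KLF8, KLF14, KLF17, SP5 and SP7 lay below the median level even at their brightest probe sets. The 9 KLF genes all lay above the 78th percentile at theirs. The called gene was KLF3, a repressor that binds the corepressor CtBP. At 225133_at its signals were 1019.7, 983 and 928 in spheroids, against 376, 400.3 and 389.8 in monolayers. The groups were far apart and tight, with a difference of 1.18 ± 0.12 (SE, limma, adjusted p = 0.00105). The other 3 KLF3 probe sets gave -0.30, -0.0088 and 0.18 and were not called.

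**Figure D4:**
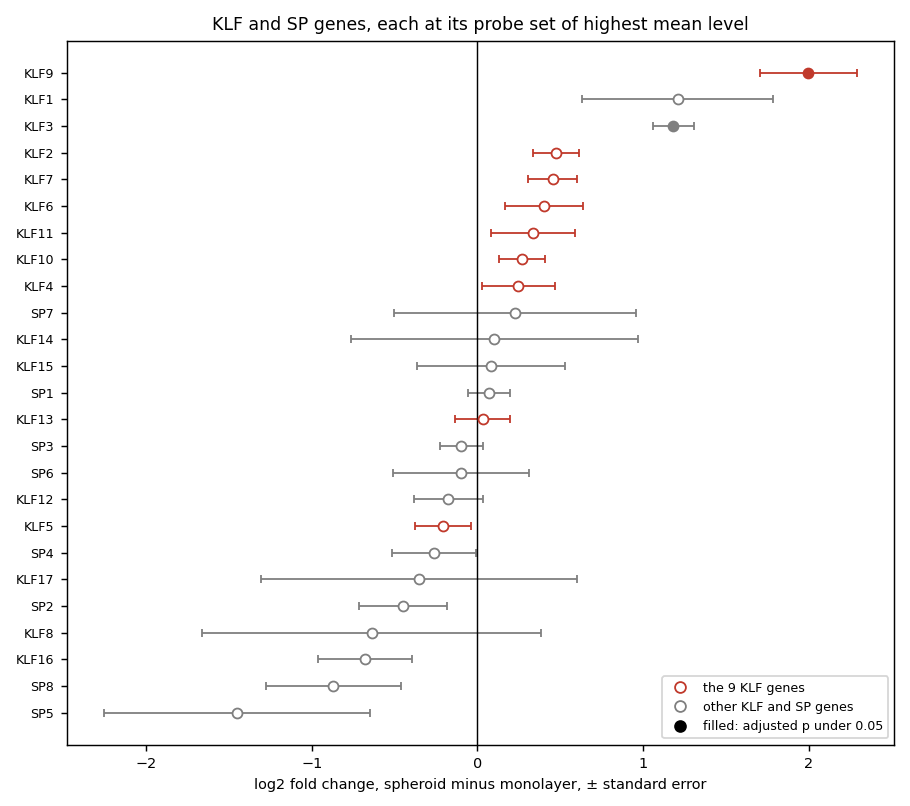
Log2 fold change (spheroids minus monolayers, ± standard error) of each KLF and SP gene at its brightest probe set, the 9 KLF genes in red and the others in grey, with filled points where called. Of the 9 KLF genes, 8 lie above 0 and KLF5 lies at -0.21, and KLF9 and KLF3 are the 2 filled points.

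The genes around the family were read at their brightest probe set, at which 13.1% of all genes were called, and the small lists below are to be read against that share. Of 10 cofactors (SIN3, CtBP, histone deacetylase and acetyltransferase genes), 0 were called higher and 1 lower, with a median difference of -0.098. The called gene was HDAC2, a histone deacetylase of the SIN3 complex, with signals of 1322, 1394 and 1262 in spheroids, against 1727, 1645 and 1695 in monolayers (-0.50 ± 0.12 SE, limma, adjusted p = 0.0294). The groups did not overlap, but the call was lost when any array except spheroid 2 was left out, at differences of -0.52 to -0.48. Of 6 genes for the turnover of KLF proteins, 0 were called in either direction by limma, 3 had an unadjusted p under 0.05, and the methods' t-test called 0. Their median was -0.31, and the largest difference among those with a small p was that of FBXW7, a ubiquitin ligase subunit that targets KLF2 and KLF5, at -0.60 (limma, adjusted p = 0.076), which passed without spheroid 1 (-0.78, adjusted p = 0.0344). Of 6 genes of the ERK5 and MEF2 route to KLF2, 0 were called by limma or the methods' t-test, 0 had an unadjusted p under 0.05, and the median was 0.018.

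Genes known as targets of these factors in other tissues formed 3 short lists, read against the 3.88% of all genes called higher and the 9.22% called lower. Of 8 known targets of KLF2 and KLF4, 2 were called higher and 1 lower, with a median difference of -0.020. CDKN1C, an inhibitor of cyclin-dependent kinases, had signals of 314, 243 and 198 in spheroids, against 68.2, 102 and 83.0 in monolayers, with no overlap (1.43 ± 0.22 SE, limma, adjusted p = 0.00504). IVL, which encodes the epidermal envelope protein involucrin, averaged 567 ± 132 in spheroids and 164 ± 78.6 in monolayers (SD, n = 3 each, difference 1.73, limma, adjusted p = 0.0123). S1PR1, a receptor for sphingosine 1-phosphate and a target of KLF2 in lymphocytes, was the lower one, at 60.1 ± 7.3 in spheroids and 108 ± 17.4 in monolayers (-0.98, limma, adjusted p = 0.0149). THBD, thrombomodulin, gave -1.24 and did not pass (limma, adjusted p = 0.109). Monolayer 1, at a signal of 349, stood above monolayers 2 and 3, at 99.9 and 127, and without it the THBD difference was -0.70 (adjusted p = 0.103). The IVL call was lost without spheroid 2 or spheroid 3 (1.70 and 1.58), and the S1PR1 call without monolayer 2, monolayer 3 or spheroid 2 (-0.89, -0.94 and -0.96), while that of CDKN1C was kept with each array left out.

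Of 6 known targets of KLF5 and KLF6, 1 was called higher and 1 lower, with a median difference of -0.18. The higher one was FGFBP1, a binding protein that releases fibroblast growth factors, at 1041 ± 364 in spheroids and 327 ± 119.6 in monolayers (1.51, limma, adjusted p = 0.0165). The lower one was CCND1, cyclin D1 of the G1 phase, with signals of 881, 1001 and 919.6 in spheroids, against 1101, 1548 and 1481 in monolayers (-0.69 ± 0.15 SE, limma, adjusted p = 0.0237). Neither gene overlapped between the groups. The FGFBP1 call was lost without monolayer 3, spheroid 2 or spheroid 3, at 1.29 to 1.44, and the CCND1 call without any array except monolayer 1, at -0.73 to -0.60.

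Of 5 known targets of KLF9, KLF10, KLF11 and KLF13, 4 were measured, and 1 was called higher, with a median of 0.22. This was CCL5, with signals of 2702, 2033 and 2711 in spheroids, against 176, 165 and 138 in monolayers, a difference of 3.81 ± 0.20 (SE, limma, adjusted p = 1.13e-04). KLF13, the factor tied to CCL5 in T lymphocytes, differed by 0.031 at 225390_s_at in the same arrays, and by -0.69 to 0.19 at its other probe sets. KLF13 protein was not measured, and a link between KLF13 and CCL5 was not tested.

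Genes induced by the same signals as KLF9 and KLF10 were read against the same shares of all genes, 3.88% higher and 9.22% lower. Of 5 measured glucocorticoid-induced genes, 1 was called higher and 1 lower, with a median difference of -0.063. TSC22D3, which encodes the leucine zipper protein GILZ, averaged 31.2 ± 2.04 in spheroids and 11.4 ± 1.73 in monolayers (SD, n = 3 each, 1.31, limma, adjusted p = 0.0315). FKBP5, a co-chaperone of the glucocorticoid receptor, averaged 253 ± 41.0 in spheroids and 479 ± 36.2 in monolayers (-1.07, limma, adjusted p = 0.00463). The bright SGK1 and the dim ZBTB16 gave -0.063 and -0.94 and were not called. Of 5 measured early TGF-beta genes, SKIL, a SMAD corepressor, was called higher (0.94, limma, adjusted p = 0.0333) and ID1, an inhibitor of basic helix-loop-helix factors, lower (-0.68, adjusted p = 0.0214). The median difference of these 5 was 0.41. The TSC22D3 and SKIL calls were lost when any array except monolayer 1 was left out (1.19 to 1.39 and 0.78 to 1.02), and the ID1 call without monolayer 2, monolayer 3 or spheroid 1 (-0.73 to -0.68).

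Markers of the labelled cell type were present in both groups. Of 7 mesothelioma markers 1, PDPN, was called higher (1.10, limma, adjusted p = 0.0396, lost when any array except monolayer 1 was left out, at 0.89 to 1.21) and 0 lower, and their summed signal was 6447 to 9116 in spheroids and 2669 to 8617 in monolayers. The highest monolayer sum was that of monolayer 1, and the sums of monolayers 2 and 3 were 3153 and 2669, below all spheroids. CALB2, which encodes the mesothelial protein calretinin, had signals of 2238, 1317 and 1765 in spheroids, against 1582, 163 and 83.6 in monolayers, a difference of 2.49 (limma, adjusted p = 0.125) that was 3.74 without monolayer 1 (adjusted p = 2.53e-04). Since KLF2, KLF4 and KLF13 are strongly expressed in endothelium and leukocytes, markers of these and of fibroblasts were read beside them. Limma called 0 of 5 endothelial markers, with 1 under an unadjusted p of 0.05, and the methods' t-test called 0. The marker with the small p was VWF, von Willebrand factor, with 21.4, 5.41 and 23.6 in spheroids, against 3.89, 2.96 and 2.66 in monolayers, with no overlap (2.01, limma, adjusted p = 0.115, and 2.77 without spheroid 2, adjusted p = 0.0284). The summed endothelial signal was 171 to 222 in spheroids and 234 to 474 in monolayers. Most of the sums of monolayers 2 and 3 came from 1 marker, TIE1. Its signals were 62.4, 165 and 124 in spheroids, against 19.3, 204 and 205 in monolayers, so the sums give no direction for the other endothelial markers. The highest sum was that of monolayer 1, where KDR, a receptor for VEGF, had a signal of 422, against 13.6 and 8.35 in monolayers 2 and 3. The endothelial cadherin CDH5 averaged 1.60 in spheroids and 2.67 in monolayers, below the 20th percentile of signals. Limma and the methods' t-test called 0 of 3 measured leukocyte markers, with 2 under an unadjusted p of 0.05 in limma. Their sum was 70.8 to 81.8 in spheroids and 24.4 to 42.2 in monolayers. Of 5 fibroblast markers 1, PDGFRA, was called higher (3.67, limma, adjusted p = 0.00514), with a sum of 642 to 692 in spheroids and 485 to 832 in monolayers. The signal at the 3' end of ACTB over that at its 5' end, which rises as RNA breaks down, was 1.11 to 1.23 in spheroids and 1.09 to 1.11 in monolayers. The same ratio for GAPDH overlapped between the groups, at 0.890 to 0.914 in spheroids and 0.882 to 0.914 in monolayers. The part of these values in the KLF differences was not tested.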

How the data were processed

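The authors deposited linear signal intensities, 1 per probe set and array, computed with the MAS5 algorithm (named without a version in the submitters' processing notes). The mean after trimming 2% of probe sets at either end was 150.0 on each array, while the medians differed. Detection calls are not used here, so it is not known which dim signals lay above background. Precision is limited by the number of arrays. The labels do not say whether equal replicate numbers mark cultures grown together, and the reported fit did not pair them.

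Signals were transformed to log2, without pseudocount, floor or filter, and centred on the median of each array. Leaving aside 62 control probe sets, spheroids and monolayers were compared with limma 3.58.1 (R 4.3.3, lmFit and eBayes with a mean-variance trend, two-sided), with p-values adjusted by Benjamini-Hochberg over 54613 probe sets and a threshold of 0.05. Probe sets were named through the platform annotation, which gives 1 symbol to 41097 probe sets, several to 1801 and none to 11777. Only those with 1 symbol were used. Genes of the lists were read at their brightest probe set (highest mean centred level), a gene without one being given as not measured, and lists are described by counts and medians only. The genes named are all 9 members, from each list up to 4 genes of lowest adjusted p, called KLF or SP genes, and the 3 genes closest in pattern to the KLF probe sets of largest called rise and fall. Some further list genes, among them KRT5 and TIE1, are named for their signals alone. The members and lists were chosen with earlier results of these data known. The script was tested on simulated data.

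The alternatives changed the scaling (no centring, the 75th percentile, quantile normalization), the treatment of dim probe sets (signals raised to the 20th percentile, or testing the brighter probe sets alone), the test (limma with no variance trend, the methods' t-test, a replicate block) and the arrays (each left out in turn).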

Additional observations from a re-analysis of the deposited data

How the results depend on the processing

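Among the KLF probe sets, 4 were called higher with the values centred on the array median, and 8, 9 and 9 with the 75th percentile, quantile normalization and no centring, 7 among probe sets above the median level only, 1 by the methods' t-test and 0 by limma without the trend (9 under an unadjusted p of 0.05). Leaving out 1 array gave 2 to 4, with 2 without spheroid 1, spheroid 3 or monolayer 2. The 1 lower call (KLF5 209212_s_at) became 0 without centring, with the 75th percentile, with quantile normalization, in limma without the trend and in the methods' t-test, and 0 to 1 with 1 array left out. Over all probe sets, 1519 were called higher in the reported fit, 2467, 2455 and 2561 with the 75th percentile, quantile normalization and no centring, 176 by limma without the trend, 267 by the methods' t-test and 632 to 2263 with 1 array left out (826, 813, 912 and 632 without monolayer 2, monolayer 3, spheroid 1 and spheroid 3). The calls lower over all probe sets were 3630, against 281 without the trend, 974 by the methods' t-test and 1612 to 4314 with 1 array left out (1612, 1660, 2017 and 2185 without monolayer 2, monolayer 3, spheroid 2 and spheroid 3). Of the 27306 probe sets above the median level, tested alone, 1884 were called higher and 4541 lower. The share of calls that were higher was 29.5% with centring and 47.2% without.

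Among the KLF probe sets, signs turned at 5, none of which had passed. KLF13 230094_at, at -0.057, gave 0.089 without centring, 0.081 with the 75th percentile, 0.20 with the floor, and -1.10 to 0.72 with 1 array left out. With 1 array left out, KLF2 226646_at gave -0.16 to 1.49, KLF4 221841_s_at -0.0020 to 0.42, KLF4 220266_s_at -0.10 to 0.23 and KLF13 225390_s_at -0.091 to 0.15. The lowest value of KLF2 226646_at came without spheroid 3, of both KLF4 probe sets without spheroid 1 and of KLF13 225390_s_at without monolayer 1. The causes were not tested.

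Over all probe sets, dim ones included, arrays with the same replicate number deviated together little (correlations 0.091, -0.013 and 0.022). Unlike numbers gave -0.075 to 0.055, and such correlations cannot exclude a pairing. At CALB2, KRT5 and KLF11 218486_at replicate 1 had the highest signal of each group, and at both KLF5 probe sets the lowest of each. At KLF9 203543_s_at replicate 1 had the highest signal in the monolayers alone. With the replicate number as a block, 4 KLF probe sets were called higher and 1 lower, and 1947 and 4186 over all probe sets. Under the block HDAC2 was not called (adjusted p = 0.0502) and FBXW7, THBD and CALB2 were (limma, adjusted p = 0.0446, 0.0109 and 0.0160). Calls of the listed genes other than KLF3, HDAC2 and CCL5 were lost both in limma without the trend and in the methods' t-test. KLF3 was lost in limma without the trend, and HDAC2 there and with all but 1 of the arrays left out. CCL5 was called under every alternative run. At 4 KLF probe sets at least 1 array lay under the 20th percentile of signals, where an order of values is least certain.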

Other observations

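The genes whose values followed those of KLF9 203543_s_at most closely over the 6 arrays, among probe sets above the median level, were ICAM1, CYP1B1 and ASS1, with Pearson correlations of 0.998, 0.998 and 0.997. These correlations describe 6 arrays in 2 groups that differ at all 4 genes, and were picked from many probe sets, so no p is given. ICAM1, an adhesion molecule for leukocytes, had signals of 2595, 2978 and 2891 in spheroids, against 1887, 1560 and 1367 in monolayers (log2 difference 0.68, limma, adjusted p = 0.0245, lost without monolayer 2, monolayer 3, spheroid 1 or spheroid 3, at 0.57 to 0.71). CYP1B1, a cytochrome P450 of the aryl hydrocarbon response, differed by 1.81 (adjusted p = 0.00375), and ASS1, the argininosuccinate synthase of arginine synthesis, by 1.67 (adjusted p = 0.00613). The closest to KLF5 209212_s_at were BRAP, SLX9 and ZNF428, with correlations of 0.998, 0.997 and 0.997 and log2 differences of -0.31, -0.56 and -0.56, of which limma called none (adjusted p = 0.299, 0.131 and 0.0624).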
